A study of Homo sapiens with 6 samples.

Results

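The genes described here carry a LINC symbol, the placeholder given to a long intergenic noncoding RNA gene whose function was unknown when it was named. They were chosen from the deposited count table by name, LINC followed by digits alone, and by a raw count of at least 60 summed over the 6 libraries. The rule left 125 of the 874 LINC rows in the table, which has 26410 rows in all. A further 227 LINC rows had at least 1 count but stayed under the minimum, and the rest had none. The rule used the abundance over all libraries together and did not use the difference between the groups, so the levels describe how the genes were picked. A scarce gene can still reach the minimum through 1 group alone, as LINC01512 did with 121 counts in control against 4 in shPHF19 libraries. The differences of scarce genes are therefore not wholly free of the rule. Because the rule asks only for counts, it also kept genes that have since been reclassified. In the current RefSeq annotation 112 of the 125 are long noncoding RNAs, 12 are protein-coding genes and 1 is a pseudogene.

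All 6 libraries came from Kasumi-1, an established human acute myeloid leukaemia line with the RUNX1::RUNX1T1 fusion. In 3 libraries the cells carried a hairpin against PHF19 (shPHF19) and in 3 a scrambled control hairpin, expressed from the U6 promoter of a lentiviral vector that also encodes green fluorescent protein and puromycin resistance. All cells, controls included, were put under 2 µg/ml puromycin 48 h after transduction and kept there for no less than 24 h. The treatment tag of the control samples reads WT, whereas the protocol names the scrambled hairpin. The labels do not say whether the cells were cloned. They also do not say that replicates were separate cultures, and the p-values then reflect only how far these libraries differ, which may be technical variation.

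Long noncoding RNAs are transcribed by RNA polymerase II, are often spliced and polyadenylated, and are usually present at lower levels and in fewer cell types than messenger RNAs. Some act where they are made, on neighbouring genes, some act elsewhere in the nucleus or cytoplasm, and some turn out to encode short proteins. PHF19 is a Polycomb-like accessory subunit of Polycomb repressive complex 2, the enzyme complex that methylates lysine 27 of histone H3 and is linked to gene silencing, often at CpG-rich promoters. The comparison asks how far these transcripts differed once PHF19 was silenced.

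The libraries held 14229878 to 16615143 counts, and 3 counts, the upper limit behind a count of 0, are worth 0.177 to 0.223 CPM (counts relative to library size, here with edgeR's TMM factors). PHF19 itself stood at 167, 199 and 189 CPM in the control libraries and at 41.1, 36.9 and 33.0 CPM in the shPHF19 libraries, with no overlap (log2 fold change -2.32, SE 0.0975, edgeR adjusted p = 3.55e-25). The Kasumi-1 markers RUNX1T1, KIT, CD34, CD33, MPO and PTPRC were all detected, but not at constant levels. Of these 6, 3 rose (CD34, CD33 and MPO), 2 fell (RUNX1T1 and PTPRC) and 1 was not called. Of 12 monocyte and macrophage markers 9 were tested, 7 fell and 0 rose (their summed level was 199 to 215 CPM in control and 60.3 to 65.9 CPM in shPHF19 libraries), with CD14 and CD163 near 0 in both groups. All 7 primary granule markers rose (summed level 4173 to 4611 against 8571 to 9987 CPM). Of 10 erythroid, lymphoid, stromal and epithelial markers 5 were tested, of which 1 rose and 1 fell. The epithelial gene EPCAM rose from a mean of 56.8 to 84.7 CPM (log2 fold change 0.58), and the lymphoid gene CD3E fell (-0.91). The part of these shifts in the LINC differences was not tested. In bulk RNA, fewer cells that hold a transcript and less of it per cell cannot be told apart.

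More LINC genes were lower than higher after PHF19 silencing. Of the 125, 124 passed the expression filter and were tested with edgeR's quasi-likelihood test, with Benjamini-Hochberg adjustment over all 13014 genes tested and a threshold of 0.05. Of these, 62 passed (50.0%), against 60.2% of all genes tested, so they were called no more often than genes in general. The directions were uneven. In shPHF19 cells 51 fell (41.1%, against 30.9% of all genes tested) and 11 rose (8.87%, against 29.4%). Falls of at least 2-fold numbered 29 (23.4%, against 10.9%) and rises of at least 2-fold numbered 6 (4.84%, against 5.72%). The median log2 fold change over the 124 was -0.41, compared with -0.03 over all genes tested, and 89 of the 124 had a negative value. In 65 of them (52.4%, against 63.5% of all genes tested) the 3 control values and the 3 shPHF19 values did not overlap. That held for 47 of the 51 that fell and 10 of the 11 that rose. These 2 counts largely restate the calls, as both rest on the same values.

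More LINC genes were also lower than higher under the other ways of scaling the libraries, but the counts and medians moved. A scaling factor shifts every gene of a library alike. These fits therefore cannot test the LINC genes against genes in general. With library totals in place of TMM factors the median over all genes shifted from -0.03 to -0.24 and that of the LINC genes to -0.62, with 68 lower and 7 higher. With upper-quartile factors the LINC median was -0.52 (61 lower and 9 higher) beside -0.13 over all genes. With both of these the number of rises shrank as the scaling moved the zero point, and the number of falls grew. With DESeq2 size factors the LINC median was -0.40 (51 lower and 12 higher) beside -0.02 over all genes.

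The summed LINC counts were lower in the silenced libraries, by an amount that depends on the scaling. They made up 0.201%, 0.186% and 0.195% of all counts in the control libraries and 0.141%, 0.147% and 0.152% in the shPHF19 libraries. Their mean share was 0.194 ± 0.00763% (SD, n = 3) in control and 0.147 ± 0.00568% (SD, n = 3) in shPHF19 cells, and the groups did not overlap. These shares use raw library totals, under which genes in general were also lower. With TMM factors the summed level was 1808 ± 63.3 CPM in control and 1575 ± 40.5 CPM in shPHF19 cells (SD, n = 3), a smaller difference, again with no overlap. LINC00657, now NORAD, alone supplied 28.8% of these counts. Without it the share was 0.140 ± 0.00219% in control and 0.103 ± 0.000361% in shPHF19 cells (SD, n = 3).

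Every one of the 125 had a count in each of the 6 libraries, but most were scarce. Their total counts ran from 62 to 45044 with a median of 291, and their mean levels from 0.663 to 487 CPM with a median of 3.16 CPM. Low-abundance genes of every kind leaned towards lower values in this comparison, so the LINC genes were set beside all genes of like abundance. Below 1 CPM the median log2 fold change was -0.40 for 20 LINC genes and -0.58 for all 677 genes. Between 1 and 2 CPM it was -0.77 for 22 LINC genes and -0.54 for 843 genes, and between 2 and 5 CPM it was -0.45 for both the 32 LINC genes and the 1155 genes. At these low levels the LINC genes thus lay near other genes of the same abundance, on either side. Above 5 CPM they lay lower. Between 5 and 20 CPM the medians were -0.53 for 32 LINC genes and -0.17 for 2800 genes, with 53.1% and 37.3% of them called lower. At 20 CPM and over they were -0.18 for 18 LINC genes and 0.10 for 7539 genes, with 38.9% and 27.1% called lower. Level was not fully matched within these upper ranges. The median level was 8.48 CPM for LINC genes and 11.7 CPM for all genes between 5 and 20 CPM. At 20 CPM and over it was 38.0 and 61.5 CPM. Genes reached the filter through at least 3 libraries, so a scarce gene that passed through 1 group alone had to differ. That applies below 1 CPM and also to genes between 1 and 2 CPM such as LINC01512. The counts in these ranges are a description only.

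**Figure D1:**
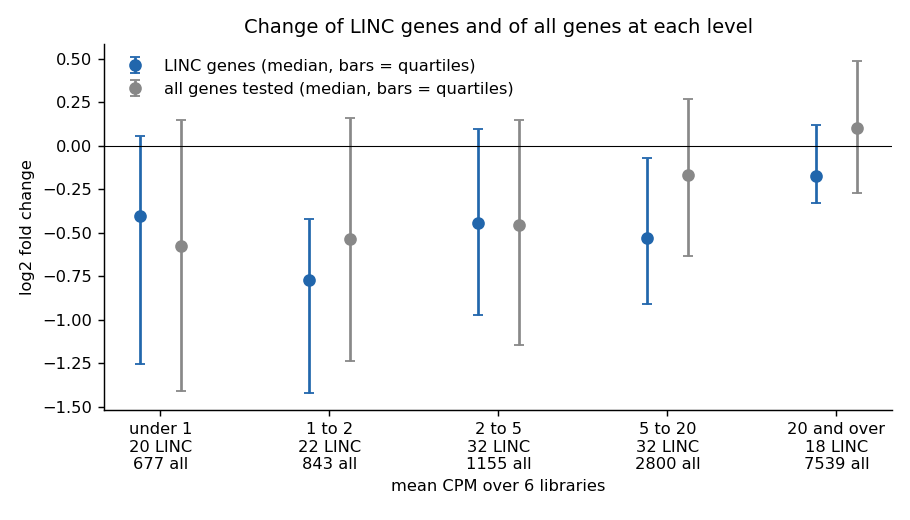
Median log2 fold change (y axis, shPHF19 against control) in 5 ranges of mean level in CPM (x axis) for the tested LINC genes and for all tested genes, with bars from the first to the third quartile. The LINC median lies above that of all genes below 1 CPM, under it between 1 and 2 CPM and level with it between 2 and 5 CPM. Above 5 CPM it lies lower, at -0.53 against -0.17 between 5 and 20 CPM.

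Other noncoding classes in the same table had medians near that of the LINC genes. By GENCODE type, 93 further long intergenic RNA genes outside the set had a median of -0.41 (37 lower, 6 higher) and 238 antisense genes had -0.39 (78 lower, 24 higher). Protein-coding genes, 11825 in number, had a median of -0.02 (3672 lower, 3665 higher). These classes differ in level, with median levels of 3.24, 2.47 and 32.9 CPM in that order. Protein-coding genes of low level also had low medians, at -0.71 below 1 CPM, -0.60 between 1 and 2 CPM and -0.51 between 2 and 5 CPM.

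**Figure D2:**
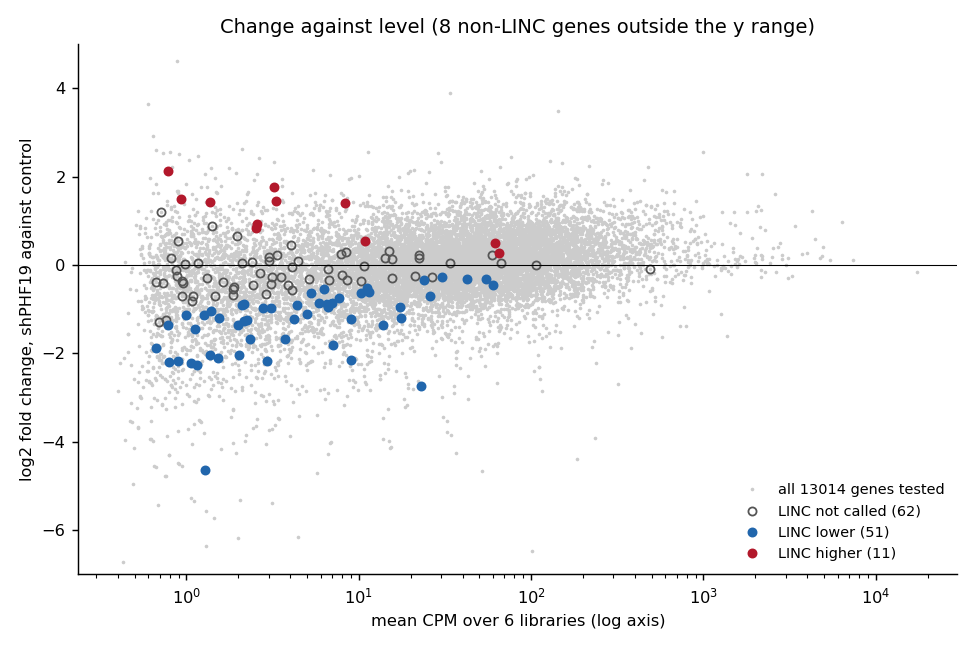
Log2 fold change (y axis, shPHF19 against control) against mean level in CPM (x axis, log scale) for every tested LINC gene, drawn over all 13014 tested genes in grey, with called LINC genes coloured by direction. The 51 lower LINC genes are spread over levels from under 1 CPM to LINC01088, while NORAD, the LINC gene farthest to the right, lies near 0.

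LINC01512 fell the most. It stood at 2.40, 2.65 and 2.40 CPM in the control libraries and at 0.0742, 0.130 and 0.0688 CPM in the shPHF19 libraries, that is 121 counts in all against 4. The ratio, allowing for library size, was 27.0, with an exact 95% interval of 10.3 to 101 that covers counting error only (log2 fold change -4.64, SE 0.612, edgeR adjusted p = 7.91e-09). The silenced libraries were all below the level of 3 counts. The gene lies at chr6:43891028-43938207 (RefSeq, GRCh38.p14).

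LINC00926 combined a large fall with a high level, and had the smallest SE among the 12 largest falls. It is known as a transcript of B lymphocytes in blood. Control values were 39.6, 40.1 and 40.7 CPM and shPHF19 values 5.93, 4.99 and 7.22 CPM. The means were 40.1 ± 0.591 and 6.05 ± 1.12 CPM (SD, n = 3), a 6.64-fold fall (log2 fold change -2.73, SE 0.146, edgeR adjusted p = 3.59e-21). The B-lymphocyte gene CD79A was low and not called (mean over all libraries 8.75 CPM, log2 fold change 0.17), and MS4A1 was at or near 0. LINC00926 is a gene of the plus strand at chr15:57300365-57307769.

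LINC01094 was the other member of the largest falls to exceed 10 CPM in control cells. It stood at 16.3, 11.9 and 15.7 CPM in control and at 3.34, 3.56 and 2.96 CPM in shPHF19 libraries, with every control value more than 3 times any silenced value. Its mean went from 14.6 ± 2.39 to 3.29 ± 0.305 CPM (SD, n = 3; log2 fold change -2.15, SE 0.196, edgeR adjusted p = 2.65e-13). LINC00672, which RefSeq now lists as the coding gene LASP1NB, stood at 5.53, 5.18 and 3.82 CPM in control and at 0.594, 1.36 and 1.24 CPM in silenced cells, and its log2 fold change came to -2.17 (edgeR adjusted p = 2.05e-07).

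The remaining 8 of the 12 largest falls were transcripts of under 4 CPM. LINC00663 stood at 3.50, 2.47 and 3.76 CPM in control and at 1.19, 0.583 and 0.619 CPM in shPHF19 libraries (log2 fold change -2.03). LINC01160 stood at 3.07, 2.24 and 2.14 CPM against 0.148, 0.583 and 0.963 CPM (-2.10), and LINC01091 at 1.78, 2.65 and 2.20 CPM against 0.594, 0.453 and 0.550 CPM (-2.05). The groups were separate in all of them, but few counts lie behind the silenced values. LINC00426 had 93 counts in control against 17 in silenced libraries (log2 fold change -2.26), LINC01163 had 85 against 16 (-2.23) and LINC00959, now the coding gene C10orf143, had 72 against 14 (-2.17). LINC01270 had 63 counts against 12 (log2 fold change -2.20) and LINC01590 had 51 against 12 (-1.89). The exact 95% intervals of these 5 ratios, for counting error only, had lower ends between 2.00 and 2.89. LINC01160 has a copy of at least 98% identity, NNT-AS1, over 72.5% of a transcript. LINC01270 shares exon positions with the counted gene LINC01271. The values of both are uncertain for that reason. All 12 kept their call and direction in each alternative that tested them, with LINC01270 and LINC01590 left untested in 1. The alternatives reuse the same libraries, so this is no separate support. LINC01512, LINC00426, LINC01163, LINC01270, LINC00959, LINC01091 and LINC01590 had under 10 counts in every silenced library. They passed the expression filter through the control libraries, so their differences are not free of that filter. The size of a pair of the 12 rested on 1 library, as LINC01270 had -2.90 without shPHF19 replicate 1 and LINC01160 had -2.69 without shPHF19 replicate 3.

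**Figure D3:**
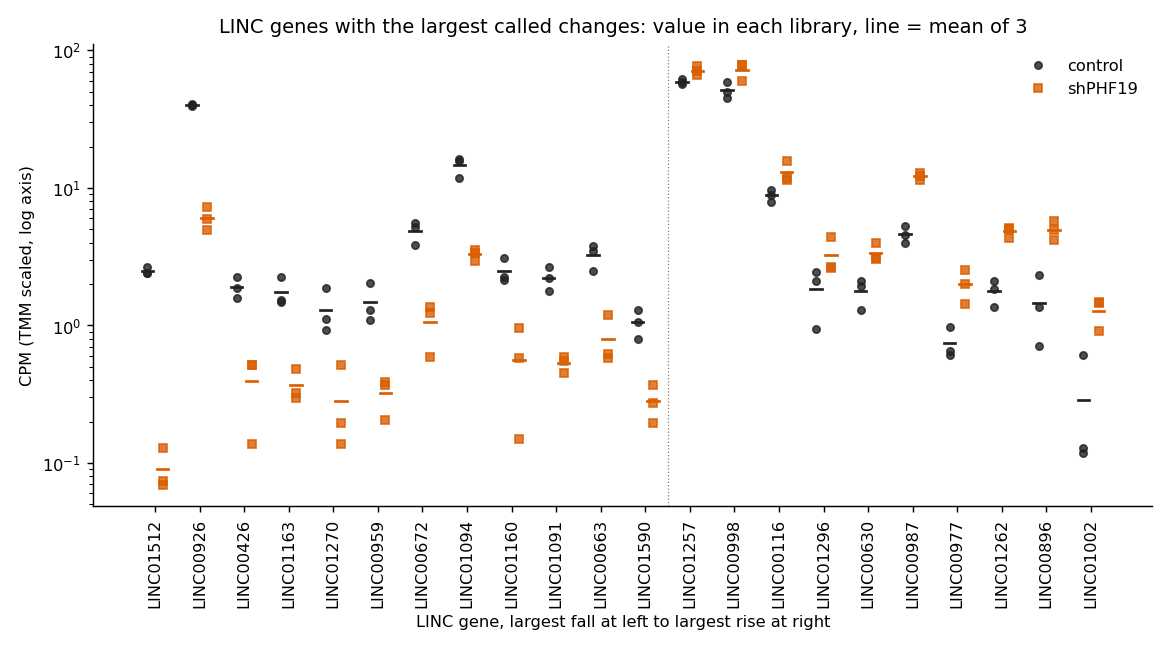
Level in CPM (y axis, log scale) of the LINC genes with the largest falls and rises (x axis) in each of the 3 control (black circles) and 3 shPHF19 (orange squares) libraries, 1 point per library and a line at each mean. LINC00926 drops from about 40.1 to 6.05 CPM with little spread, and LINC01257, the smallest of the rises, shows groups that lie close together.

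Rises were fewer and smaller. LINC00987 had the smallest adjusted p among them, at 3.99, 5.30 and 4.53 CPM in control and 11.4, 12.8 and 12.2 CPM in shPHF19 libraries. Its groups were well apart, with means of 4.61 ± 0.656 and 12.1 ± 0.671 CPM (SD, n = 3; 2.63-fold, log2 fold change 1.40, SE 0.188, edgeR adjusted p = 1.31e-08). It shares exon positions with the counted pseudogene A2MP1, so its value depends on how shared reads were assigned. LINC00896 stood at 2.33, 0.707 and 1.36 CPM in control and at 4.97, 5.76 and 4.20 CPM in silenced libraries (log2 fold change 1.76, SE 0.323, edgeR adjusted p = 6.85e-06). LINC01262 stood at 1.84, 2.12 and 1.36 CPM against 5.12, 5.05 and 4.33 CPM (log2 fold change 1.44). In both the lowest silenced value was above the highest control value by over 1.5 times.

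LINC01002 had the largest fitted rise, 2.12 on the log2 scale, on 14 counts in control and 55 in silenced libraries (ratio 4.40, exact 95% interval 2.42 to 8.57, counting error only). Its transcript has a full-length copy of at least 98% identity, AC138035.1, so the value is uncertain. Without control replicate 1 the log2 fold change was 3.28, and in the other alternatives it was at least 1.75. LINC00977, a low-abundance gene on chromosome 8, stood at 0.614, 0.648 and 0.972 CPM in control and at 2.00, 1.42 and 2.55 CPM in silenced libraries (log2 fold change 1.41, edgeR adjusted p = 0.00541). LINC01134, named here after its values were seen, was the only called rise with overlapping groups, at 0.307, 0.824 and 0.324 CPM against 0.816, 2.65 and 0.688 CPM.

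The smaller rises were less firm. LINC00630, an X-linked gene, stood at 2.09, 1.30 and 1.94 CPM against 4.01, 3.11 and 3.03 CPM (log2 fold change 0.93, edgeR adjusted p = 0.0127). It no longer passed when control replicate 2 (0.0675) or shPHF19 replicate 1 (0.0633) was left out, in a range of 0.0110 to 0.0675 across alternatives. LINC01296 is now the pseudogene DUXAP9 and has a copy, DUXAP10, over its whole transcript. Its log2 fold change was 0.83 (edgeR adjusted p = 0.0353), and the call was lost without control replicate 2 (0.212), without shPHF19 replicate 2 (0.267), with DESeq2 (0.0857), with library totals (0.122) and with upper-quartile factors (0.0641), in a range of 0.0160 to 0.267 over all alternatives.

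To show what the start regions of these genes look like, the promoters of the 3 largest falls and the 3 largest rises with an entry in the RefSeq promoter table (GRCh38.p14) are printed 5′ to 3′ on the strand of the gene, from 250 bases before the start to 50 after it, with every CG pair in capitals. CG pairs are shown because Polycomb repressive complex 2 is known to gather at CpG-rich promoters. The positions are chr6:43890778-43891077 on the plus strand for LINC01512, chr13:30373865-30374164 on the minus strand for LINC00426 and chr10:128285700-128285999 on the plus strand for LINC01163 among the falls. Among the rises they are chr19:202160-202459 on the minus strand for LINC01002, chr4:189659356-189659655 on the plus strand for LINC01262 and chr12:9239823-9240122 on the plus strand for LINC00987.
LINC01512: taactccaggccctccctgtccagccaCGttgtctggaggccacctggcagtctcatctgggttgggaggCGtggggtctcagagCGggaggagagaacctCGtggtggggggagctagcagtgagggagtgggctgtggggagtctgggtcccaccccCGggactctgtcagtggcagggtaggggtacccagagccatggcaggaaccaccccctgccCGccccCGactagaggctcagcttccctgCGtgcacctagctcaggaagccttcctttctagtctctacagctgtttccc
LINC00426: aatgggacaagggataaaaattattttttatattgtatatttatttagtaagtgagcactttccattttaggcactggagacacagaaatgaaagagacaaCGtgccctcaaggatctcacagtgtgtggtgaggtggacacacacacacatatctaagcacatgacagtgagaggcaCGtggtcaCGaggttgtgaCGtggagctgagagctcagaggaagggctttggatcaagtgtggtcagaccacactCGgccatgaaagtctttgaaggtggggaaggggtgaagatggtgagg
LINC01163: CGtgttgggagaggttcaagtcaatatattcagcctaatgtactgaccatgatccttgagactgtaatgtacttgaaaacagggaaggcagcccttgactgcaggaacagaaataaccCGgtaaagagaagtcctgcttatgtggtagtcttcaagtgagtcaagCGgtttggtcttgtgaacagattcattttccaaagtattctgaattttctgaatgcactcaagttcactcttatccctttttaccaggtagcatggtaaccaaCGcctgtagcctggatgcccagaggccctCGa
LINC01002: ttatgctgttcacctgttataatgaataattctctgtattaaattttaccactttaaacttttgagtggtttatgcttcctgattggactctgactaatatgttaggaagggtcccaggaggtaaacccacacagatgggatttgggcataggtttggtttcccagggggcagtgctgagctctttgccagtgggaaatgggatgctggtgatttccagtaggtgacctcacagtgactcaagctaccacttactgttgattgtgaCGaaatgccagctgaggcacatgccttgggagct
LINC01262: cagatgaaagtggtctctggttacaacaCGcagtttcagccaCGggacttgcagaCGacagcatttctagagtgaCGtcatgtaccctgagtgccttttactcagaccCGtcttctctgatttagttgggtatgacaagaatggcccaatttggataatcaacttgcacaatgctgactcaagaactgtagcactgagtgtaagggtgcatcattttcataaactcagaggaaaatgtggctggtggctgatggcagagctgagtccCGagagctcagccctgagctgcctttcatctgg
LINC00987: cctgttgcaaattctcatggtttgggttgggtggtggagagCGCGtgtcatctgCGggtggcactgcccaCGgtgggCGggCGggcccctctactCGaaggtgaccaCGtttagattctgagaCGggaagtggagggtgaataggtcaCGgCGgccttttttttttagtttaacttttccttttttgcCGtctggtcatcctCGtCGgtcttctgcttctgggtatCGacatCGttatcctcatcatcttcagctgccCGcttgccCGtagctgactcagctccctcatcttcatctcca

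Of these 6 only LINC00987 was CpG-rich (18 CG pairs, 54.3% G and C, observed over expected CG of 0.813). A promoter was called CpG-rich at a G and C content of at least 50% and an observed over expected ratio of at least 0.6. LINC01512 had 8 CG pairs in a window of 64.3% G and C, an observed over expected ratio of 0.258, and LINC01002 had 1. The other 3 had 5 or 6 CG pairs.

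Over the whole set the promoters were as CpG-rich as promoters in general. Of the 93 LINC genes with an entry, 44 were CpG-rich (47.3%), against 46.9% of all 35116 promoters in the table. The share was 17 of 39 among those that fell (43.6%), 4 of 7 among those that rose (57.1%) and 23 of 46 among those not called (50.0%). The 1 remaining promoter belongs to the untested LINC01588. The median log2 fold change was -0.36 for the LINC genes with a CpG-rich promoter and -0.49 for those without.

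**Figure D4:**
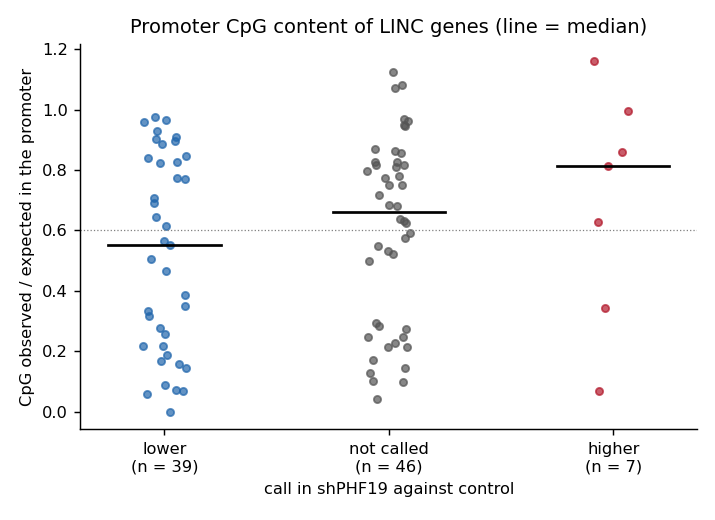
Observed over expected CG ratio of the promoter (y axis) for the tested LINC genes with a promoter entry, grouped by their call in shPHF19 against control (x axis), 1 point per gene, with a line at each median and a dotted line at 0.6. The medians are 0.553 for 39 genes that fell, 0.660 for 46 not called and 0.813 for 7 that rose, and the points of the 3 groups overlap widely.

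Short sequences bound by known transcription factors were searched on both strands of the same windows. The RUNX core letters TGTGGT were present in 12 of the 93 LINC promoters and in 13.1% of all promoters. They were found in 7 of 39 that fell, 0 of 7 that rose and 5 of 46 that were not called, with LINC00426 and LINC01163 among those that fell. The E-box CACGTG was present in 9 of the 93, LINC00426 included, and in 7.26% of all. The ETS letters GAGGAAGT were present in 2 of the 93 and in 2.59% of all, and the letters TGATGCAA, bound by ATF4 and its partners, in 1 of the 93 and in 0.866% of all. None of these sequences contains another, and a match is a description of the letters only.

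Of the 6 most abundant LINC genes 3 were not called and 3 were. LINC00657 (NORAD), a cytoplasmic RNA that binds Pumilio proteins, stood at 554, 456 and 502 CPM in control and at 417, 476 and 520 CPM in shPHF19 libraries, with overlapping groups (log2 fold change -0.10, SE 0.0860, edgeR adjusted p = 0.326). It passed the test when library totals (-0.30, edgeR adjusted p = 0.00297) or upper-quartile factors (-0.20, 0.0389) were used, and its adjusted p ran from 0.00297 to 0.907 over all alternatives. LINC01000 stood at 96.4, 110 and 116 CPM against 114, 107 and 99.5 CPM (log2 fold change -0.01, edgeR adjusted p = 0.932). LINC00674 stood at 71.3, 61.0 and 65.7 CPM against 66.9, 68.7 and 68.0 CPM (log2 fold change 0.04, or -0.17 with library totals). LINC01000 crossed the threshold only with library totals (-0.22, edgeR adjusted p = 0.0342, in a range of 0.0342 to 0.966). Per kilobase of exon, LINC00657 (91.3 CPM per kb) was above SMIM30 (32.5), LINC01257 (25.5) and LINC01088 (15.0). LINC00674 came to 91.2 CPM per kb, but its gene model differs between GENCODE and RefSeq.

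LINC01088 was the only one of the 6 most abundant to fall, from 77.5, 67.1 and 64.1 CPM in control to 51.0, 46.4 and 53.9 CPM in silenced libraries, with no overlap (log2 fold change -0.46, SE 0.101, edgeR adjusted p = 0.000107). LINC01257, an RNA described in leukaemia with the RUNX1::RUNX1T1 fusion, stood at 56.6, 59.4 and 61.7 CPM in control and at 77.2, 70.5 and 66.5 CPM in silenced libraries. The groups did not overlap and the log2 fold change was 0.27 (SE 0.0967, edgeR adjusted p = 0.0149). The call was lost without control replicate 1 (0.0513) or shPHF19 replicate 1 (0.0671), and with library totals the log2 fold change was 0.06 (0.587); the adjusted p ran from 0.00601 to 0.587 over all alternatives.

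Several LINC symbols in the table belong to genes since renamed, some of them for a short protein they encode. Of 14 such symbols listed, 11 were in the table and 8 were tested, of which 2 rose, 1 fell and 5 did not pass, with a median log2 fold change of -0.03 beside -0.03 over all genes. LINC00998 is now SMIM30, which encodes a small membrane protein. It rose from 58.8, 49.6 and 45.0 CPM to 60.2, 78.4 and 78.4 CPM (log2 fold change 0.50, SE 0.108, edgeR adjusted p = 8.87e-05). LINC00116 is now MTLN, whose product mitoregulin sits in the inner mitochondrial membrane. It rose from 7.92, 8.95 and 9.65 CPM to 15.7, 11.4 and 11.8 CPM (log2 fold change 0.55, edgeR adjusted p = 0.00480), and it did not pass when shPHF19 replicate 1 was left out (0.0615, in a range of 0.00242 to 0.0761). LINC00493 is now SMIM26, which encodes a mitochondrial small protein. It fell from 51.2, 45.6 and 43.9 CPM to 36.6, 37.5 and 38.5 CPM (log2 fold change -0.32, edgeR adjusted p = 0.00839), and it did not pass when control replicate 1 was left out (0.0605, in a range of 6.20e-05 to 0.0605). The 3 small-protein genes of this list that passed thus did not share a direction. The list does not hold every gene renamed since, as 33 of the 125 were matched to RefSeq only by a synonym. Among those off the list, LINC00888, LINC00959, LINC00672, LINC00909, LINC01604 and LINC00476 fell while LINC01296 rose. The median of the list therefore does not stand for renamed genes as a whole. Among the 12 tested LINC genes that RefSeq now lists as coding, 5 were lower and 2 higher, with a median of -0.30.

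The other tested genes of this list did not pass. LINC01420, now NBDY, which encodes a small protein of the mRNA decapping machinery, had a log2 fold change of 0.04, and LINC00094, now BRD3OS, had 0.14. With library totals both values were below 0 (-0.17 and -0.06). LINC00152, now CYTOR, had -0.27 (edgeR adjusted p = 0.0648), with a full-length copy, MIR4435-2HG, that makes its value uncertain; it passed without shPHF19 replicate 2 (-0.42, 0.0162), with library totals (-0.48, 0.00191) and with upper-quartile factors (-0.38, 0.0105), and the adjusted p ran from 0.00191 to 0.298 over all alternatives. LINC01272, now PELATON, an RNA of monocytes and macrophages, stood at 0.799, 1.30 and 1.17 CPM in control and at 0.223, 0.971 and 0.138 CPM in silenced libraries. Of the silenced libraries, shPHF19 replicate 2 overlapped the controls (log2 fold change -1.24, edgeR adjusted p = 0.0602). Without that library the log2 fold change was -2.55 (0.00481), and over all alternatives the adjusted p ran from 0.00481 to 0.268.

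The remaining 39 LINC genes that fell had log2 fold changes from -1.82 to -0.28 with a median of -0.96, and the groups did not overlap in 35 of them. A few with known roles or large values are given here, chosen after their values were seen. LINC00996 stood at 12.2, 10.2 and 10.8 CPM in control and at 3.12, 2.72 and 3.58 CPM in silenced libraries (log2 fold change -1.82, edgeR adjusted p = 1.64e-10). LINC00888, now the small nucleolar RNA host gene SNHG33, fell from 19.9 ± 1.89 to 7.77 ± 0.541 CPM (SD, n = 3; log2 fold change -1.36), and LINC00909 fell from 24.4 ± 2.02 to 10.7 ± 0.797 CPM (SD, n = 3; -1.19). LINC01604 is now MINCR, an RNA described as induced by MYC, and fell from 2.16 ± 0.431 to 0.937 ± 0.419 CPM (SD, n = 3; -1.21). These 4 had no overlap between groups.

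The 62 LINC genes not called had log2 fold changes from -1.29 to 1.19, 38 negative and 24 positive, with a median SE of 0.296. In 8 of them the groups did not overlap, and 3 had a difference of 2-fold or more in either direction. LINC01588, the 1 gene that was not tested, had 23, 10 and 28 counts in control and 2, 7 and 3 in silenced libraries. Its groups did not overlap and the ratio was 4.54 (exact 95% interval 2.42 to 9.26, counting error only). It was called lower when the filter was a total of 60 counts (log2 fold change -2.17, edgeR adjusted p = 0.00201), in a range of 0.000857 to 0.0121 over the 7 alternatives that tested it.

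Just inside the minimum of 60 counts stood LINC01237 with 62, LINC01590 with 63 and LINC01285 with 64. Just outside stood LINC00671 with 55, LINC01126 with 51 and LINC01001 with 50.

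Some of the LINC genes that fell had a nearby protein-coding gene that fell too, and how many depends on how the neighbour is taken. Of the 124 tested genes, 112 had a position in GENCODE 29 (GRCh38), and for 86 the coding gene with the nearest start site was itself tested. Among the 45 called LINC genes of these, the neighbour was called in the same direction for 14 (31.1%), in the opposite direction for 9 and not called for 22. The 38 that fell had 12 neighbours that fell, 8 that rose and 18 not called. The share of 12 in 38 is close to the 30.9% of all genes that were called lower. The 7 that rose had 2 neighbours that rose, 1 that fell and 4 not called. Across the 86 pairs Pearson's r was 0.15 and Spearman's rho 0.19, given as a description over gene pairs from the same 6 libraries. With the neighbour taken by the nearest gene span, 18 of 46 called genes (39.1%) had a neighbour called in the same direction. The 39 that fell then had 16 neighbours that fell, 5 that rose and 18 not called, a larger share lower than with start sites. Within 5000 bases there were 21 pairs, 9 of them with a called LINC gene and 3 of those with a neighbour called in the same direction.

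Some pairs fell together. CEBPB, a transcription factor of myeloid differentiation, is the nearest coding gene to LINC01270, with start sites 101986 bases apart, and fell from 72.1 ± 3.45 to 16.7 ± 1.59 CPM (SD, n = 3; log2 fold change -2.11, edgeR adjusted p = 3.58e-21). TMIGD3, the coding gene with its start site nearest to LINC01160, had -1.97, and RAP1A, which overlaps LINC01160 on the other strand, had -0.72. ZNF14, with its start site nearest to LINC00663, had -0.95, and ZNF506, the nearest by span, had -0.65. LINC00996, taken up after its values were seen, lies nearest to GIMAP8, a GTPase gene of the immune-associated family, which fell from 8.73 ± 0.138 to 1.21 ± 0.328 CPM (SD, n = 3; log2 fold change -2.85).

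Other pairs parted. MKI67, the proliferation marker, is the nearest coding gene to LINC01163 and rose from 206 ± 25.8 to 316 ± 13.9 CPM (SD, n = 3; log2 fold change 0.61) while LINC01163 fell. ADGRD1, an adhesion G protein-coupled receptor gene, is nearest to LINC01257 and had 125 counts in control against 2 in silenced libraries (ratio 55.8, exact 95% interval 15.1 to 466, counting error only), while LINC01257 was slightly higher. Near NORAD, EPB41L1 fell (log2 fold change -2.48), and near LINC00674, KPNA2, a nuclear import receptor, rose from 234 ± 5.13 to 507 ± 22.9 CPM (SD, n = 3; 1.11), although neither LINC gene was called. LINC01578, now CHASERR, an RNA known to restrain its neighbour CHD2, was also taken up after its values were seen. It stood at 61.2, 51.0 and 53.1 CPM in control and at 60.5, 62.0 and 69.5 CPM in silenced libraries (log2 fold change 0.22, edgeR adjusted p = 0.0603). Its groups overlapped and it was not called. CHD2, a chromatin remodeller, fell from 196 ± 5.68 to 123 ± 4.63 CPM (SD, n = 3; -0.67), and a link between CHASERR and CHD2 was not tested. For LINC00926 the answer depends on how the neighbour is taken. CGNL1, whose start site is nearest at 75602 bases, was not called (log2 fold change 0.22), whereas TCF12, whose span ends 1084 bases away, fell (-0.66, edgeR adjusted p = 7.49e-09).

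**Figure D5:**
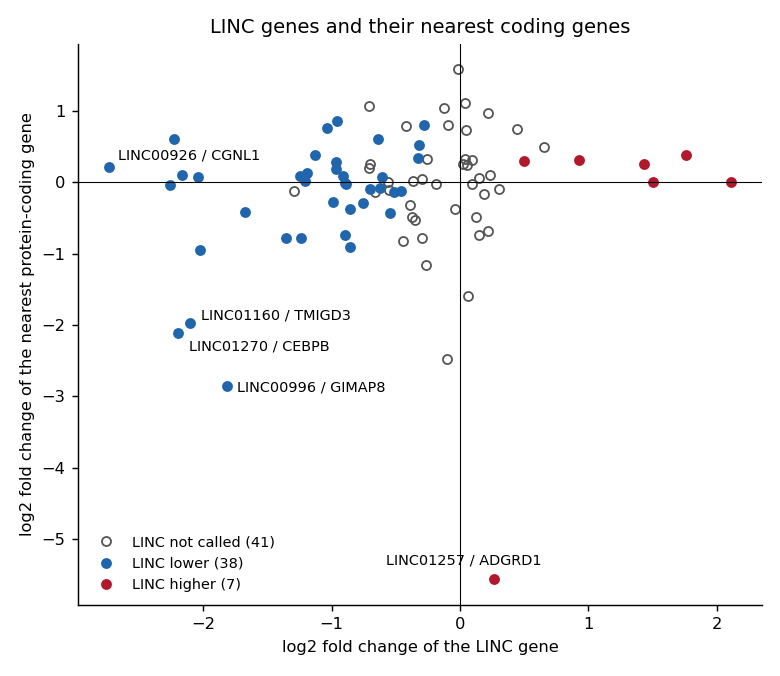
Log2 fold change of each LINC gene (x axis) against that of the tested protein-coding gene with the nearest start site (y axis), for 86 pairs, coloured by the call of the LINC gene. The points form no line, with LINC01270 and CEBPB both low and LINC01257 paired with a much lower ADGRD1.

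Many of these genes overlap other counted genes, and whether the counting used strand is not given in the sources. Of the 112 tested genes with a GENCODE position, 33 overlapped a counted gene and 24 shared exon positions with one, so reads of the pair may have been split or dropped. The 79 that overlapped none had a median of -0.40 with 34 lower and 9 higher, close to the whole set. Near-identical copies (at least 98% identity over at least 50% of the transcript) were found for 15 of the 112. Among the 97 without one, 44 were lower and 8 higher. With the reclassified genes removed, the 111 tested long noncoding RNAs had 46 lower, 8 higher and a median of -0.45.

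Well-known long noncoding RNAs with other names moved in both directions. Of 37 listed, 33 were in the table and 21 were tested, with 7 higher, 9 lower and a median of 0.02, against -0.03 over all genes tested. NEAT1, the scaffold of nuclear paraspeckles, fell from 1058 ± 54.0 to 408 ± 22.6 CPM (SD, n = 3; log2 fold change -1.38), and MALAT1, an RNA of nuclear speckles, from 746 ± 100 to 563 ± 40.9 CPM (SD, n = 3; -0.41). The small nucleolar RNA host gene ZFAS1 fell from 416 ± 33.3 to 146 ± 7.14 CPM (SD, n = 3; -1.51). GAS5, another such host gene, had -0.84 and EPB41L4A-AS1 had -1.36. MIR17HG, the host transcript of the miR-17 cluster, rose from 3.69 ± 0.502 to 14.4 ± 2.70 CPM (SD, n = 3; 1.96).

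In the authors' deposited table of their own comparison, 34 of the 125 are listed, 30 lower and 4 higher in shPHF19 cells. Of all rows with 60 or more counts, 44.2% are listed in the authors' deposited table. All 34 were called here in the same direction. Their list rests on the same libraries with adjusted p of at most 0.00993, stricter than the 0.05 used here. The match is therefore no separate support.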

How the data were processed

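RNA from 3 control and 3 shPHF19 Kasumi-1 samples was compared, with groups and replicate numbers taken from the sample titles. The authors deposited whole-number counts per gene symbol, and HISAT2 2.1.0, HTSeq 0.11.2 and hg38 are named per the submitters' processing notes. Neither the gene annotation nor the strand setting is given in the sources. The authors also deposited a table with mean normalized signal (baseMean), log2 fold changes and p-values for 5740 genes, all with an adjusted p of at most 0.00993, from which listed genes and directions were taken. Among the counted rows, 28 names had turned into dates, none of them a LINC symbol.

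Counts were tested here with edgeR 4.0.16 in R 4.3.3 (filterByExpr, TMM scaling, robust quasi-likelihood F test, group as the only term). The adjusted p covers 13014 genes, with a threshold of 0.05. The standard error is the log2 fold change over the square root of F. The biological coefficient of variation was 0.0915. The fit was tested on simulated counts. DESeq2 1.42.0, limma 3.58.1 (voom), other filters and scalings, a replicate block and leaving out each library were alternatives. Replicates of a group were distinct beyond sampling noise, with a chi-square per degree of freedom of 4.78 to 12.4. Intervals of count ratios are exact (Clopper-Pearson).

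Positions of neighbours, overlaps and exon lengths came from GENCODE 29 (GRCh38). Of the 125, 113 were matched, by LINC symbol or else by current RefSeq symbol or gene ID. Gene coordinates, gene types and promoters came from RefSeq (GRCh38.p14; 92 matched by symbol and 33 by synonym, 93 with a promoter). The text names PHF19, the 12 largest falls and up to 12 largest rises among called genes whose groups do not overlap (10 rises met this), the 6 most abundant, those at the count minimum, the untested gene, renamed genes, their nearest coding genes, and in other lists up to 4 genes with the smallest adjusted p plus MALAT1 and NEAT1. The members and lists were chosen with earlier results of these data known. Some marker genes of the lists are not reported here.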

Additional observations from a re-analysis of the deposited data

How the results depend on the processing

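The count of LINC genes called was 53 to 63 in the alternatives of filter, tool and DESeq2 size factors and when each library was left out in turn (53 to 62), against 62. With library totals only, the higher count was 7 against 11. Upper-quartile factors called 70. DESeq2 called 53, and 51 of the 62 were called there in the same direction. In all 16 settings, the first included, 34 genes were called lower and 5 higher. Among the named LINC genes no called direction reversed, while LINC00674, LINC01420, LINC00094 and LINC01000, all near 0 and not called, changed sign in some alternatives. Over all their alternatives 15 values lost a call, 12 gained one and 434 did neither. Same-numbered replicates did not deviate together (r = -0.16, -0.01 and -0.05), so the numbers were not taken to pair the libraries. With the replicate number as a block, 59 LINC genes were called (48 lower, 11 higher), 58 of them among the 62, and PELATON passed (-1.41, edgeR adjusted p = 0.0417). Restricting the set after seeing the data to genes now classed as long noncoding, or to genes with no near-identical copy, left 54 and 52 called. A scarce gene's SE limits what these depths can show.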
